A study of Danio rerio with 30 samples.

Results

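SERPINB1 (Ensembl ID ENSDARG00000070396) is 1 gene of the 31901 in the count table, a zebrafish gene that carries the symbol of human SERPINB1 in the name table used here. It was chosen by its ID for its pattern over the incubation temperatures, namely almost no reads in fish incubated at 24 °C and clear counts in fish incubated at 28 °C, so its levels by temperature are given as a description, with no test. Those levels followed the pattern in most fish but not in all: at least 10 reads of the gene were found in 0 of 10 fish incubated at 24 °C, 9 of 10 at 28 °C and 2 of 10 at 32 °C. RNA was sequenced from the spleen of 30 adult zebrafish of the AB strain, 100 days after fertilization. Embryos and larvae were reared at 24, 28 or 32 °C, and adults were kept at 28 °C, per the labels' growth protocol. At each temperature there were 5 fish given lipopolysaccharide (LPS, an outer membrane component of Gram-negative bacteria) and 5 control fish. LPS from Pseudomonas aeruginosa was injected into the body cavity, 2 µl at 50 mg/ml, and the spleen was taken after 12 h. What the control fish received and the sex of the fish are not stated in the labels, and no group carries a mutation or transgene.

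Serpins of clade B mostly act inside cells, where an exposed loop traps a serine or cysteine protease in a covalent complex that inactivates both proteins. Human SERPINB1 and its mouse counterpart inhibit the serine proteases of neutrophil granules, such as neutrophil elastase, cathepsin G and proteinase 3, and limit damage to the neutrophil's own cytosol. The human protein has also been reported to restrain inflammatory caspases. Zebrafish have several genes of this family, and the role of the one described here is not annotated in the sources used. The spleen holds red cells, B cells, phagocytes and thrombocytes, so neutrophils are a minority of the RNA measured.

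Libraries held 14840723 to 23401031 counted reads, and at that depth 3 reads, taken as the limit that a count of 0 allows, correspond to 0.11 to 0.277 CPM, the count relative to library size as scaled by the trimmed mean of M-values. These limits, and the 95% Poisson intervals given below, cover counting error only. Red cell genes summed to between 38809 and 149780 CPM in every library, and B cell genes to between 375 and 3881 CPM, so markers of spleen cells were present throughout. Libraries that stood apart were 32 °C control replicate 2, with 28134 genes holding a read against at most 22887 elsewhere, 24 °C control replicate 4, with ovary genes at 5121 CPM against at most 27.9 CPM elsewhere, and 32 °C control replicate 8, with liver genes at 5044 CPM. No 2 libraries of a group were near-identical. The labels number the fish but do not say that each came from a separate clutch or tank, so p-values measure only the spread between these samples.

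At 24 °C the gene was close to the counting limit in all 10 fish. The 5 LPS fish had 2, 2, 1, 2 and 0 reads, and the 5 control fish had 0, 1, 1, 1 and 1 reads. None of the 10 values exceeded the limit of 3 reads, so the levels of 0.0677 ± 0.0472 CPM in LPS fish and 0.0401 ± 0.0228 CPM in control fish (SD, n = 5 each) differ by a read or so per library. In total, 11 reads of the gene were counted in these 10 libraries.

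At 28 °C the gene was well above the counting limit in 9 of 10 fish. In LPS fish the counts were 207, 90, 0, 100 and 126, or 14.6, 3.73, 0, 9.24 and 6.50 CPM for replicates 1, 2, 3, 4 and 8. In control fish they were 59, 57, 169, 277 and 114, or 2.31, 2.15, 7.30, 15.7 and 6.58 CPM for replicates 1, 2, 3, 5 and 7. The values of LPS and control fish overlapped over nearly their whole range, and within each group the highest fish was far above the lowest. For LPS replicate 1 the counting interval ran from 12.6 to 16.7 CPM, so the spread between fish of 1 group was much wider than counting error. One fish, LPS replicate 3, had no read of the gene, and 3 reads in that library would be 0.240 CPM. Its library was not among those that stood apart: it had 15045608 reads, and its neutrophil gene sum of 2280 CPM and keratinocyte gene sum of 2597 CPM were both the median of its group.

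At 32 °C most fish resembled those of 24 °C and a few did not. LPS fish had 1, 1, 0, 12 and 82 reads, and control fish had 9, 0, 2, 0 and 1 reads. The fish with 82 reads, LPS replicate 5, reached 5.20 CPM, a level inside the range of the 28 °C fish that expressed the gene, and the fish with 12 reads, LPS replicate 4, reached 0.948 CPM. The control fish with 9 reads, replicate 2, is the library with an unusual number of detected genes, and its level was 0.535 CPM. The remaining 7 fish had 0 to 2 reads each.

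Group means were 6.80 ± 5.52 CPM in 28 °C LPS fish, 6.81 ± 5.51 CPM in 28 °C control fish, 1.25 ± 2.25 CPM in 32 °C LPS fish and 0.138 ± 0.226 CPM in 32 °C control fish (SD, n = 5 each). In order of mean level, both 28 °C groups came first, then 32 °C LPS, 32 °C control, 24 °C LPS and 24 °C control, and the ranges of neighbours in that order overlapped at every step. Without replicate 5 the 32 °C LPS mean was 0.257 ± 0.461 CPM (SD, n = 4), which kept its place in that order, but the group's median was 0.0441 CPM, below the median of 0.0863 CPM in 24 °C LPS fish. The place of the 32 °C control group turned on replicate 2, the library with an unusual number of detected genes, since without it the mean was 0.0383 ± 0.0467 CPM (SD, n = 4), below both 24 °C groups. Without LPS replicate 3, the 28 °C LPS mean was 8.51 ± 4.62 CPM (SD, n = 4). Medians over the 10 fish of a temperature were 1 read at 24 °C, 107 reads at 28 °C and 1 read at 32 °C. Of all reads of the gene in the 30 libraries, 0.835% came from 24 °C fish, 91.0% from 28 °C fish and 8.19% from 32 °C fish. In whole spleen, fewer cells of a type and less RNA per cell cannot be told apart.

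**Figure D1:**
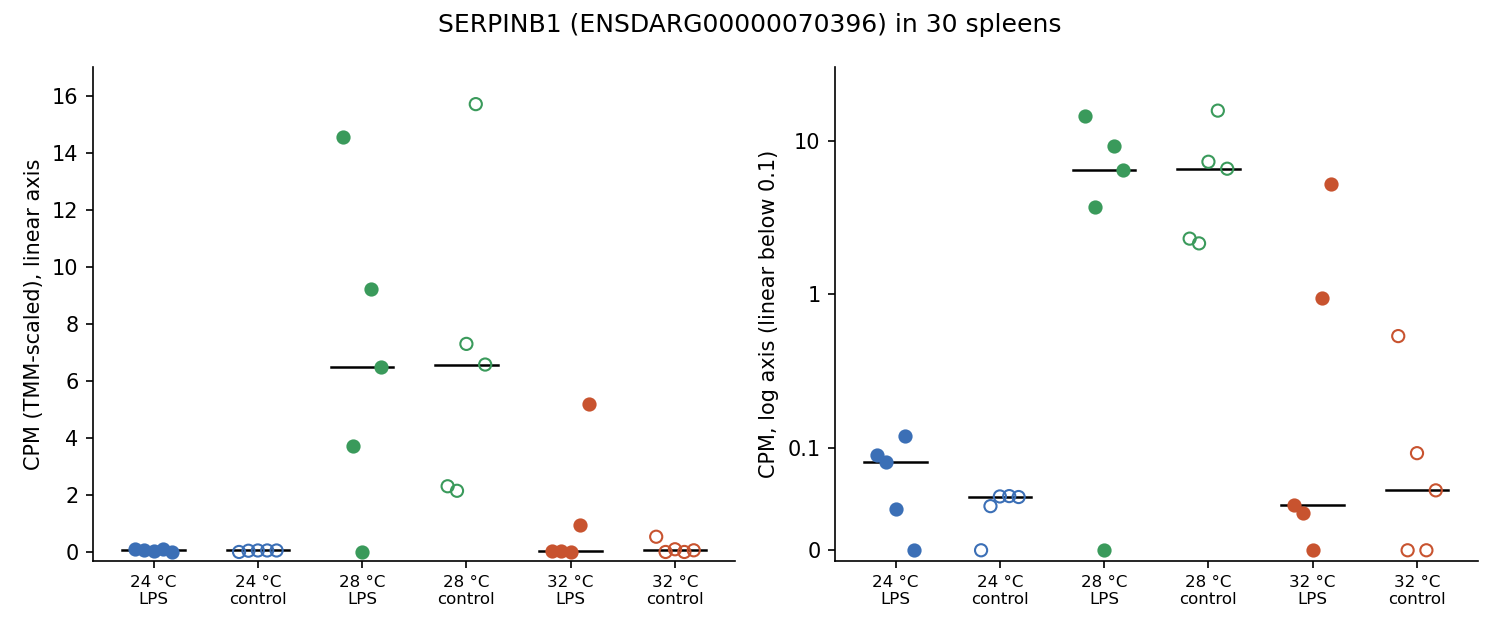
Level of SERPINB1 (ENSDARG00000070396) in CPM for each of 30 fish, by incubation temperature and treatment, with filled points for LPS, open points for control and bars for group medians, on a linear axis at left and on a log axis that is linear below 0.1 at right. All 24 °C fish lie at or below 0.119 CPM, 9 of the 28 °C fish lie between 2.15 and 15.7 CPM with 1 LPS fish at 0, and at 32 °C only LPS replicate 5 reaches 5.20 CPM.

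Every 28 °C control fish was above every 24 °C control fish, and likewise above every 32 °C control fish. Over the 17841 genes tested, 2.07% had all 28 °C control fish above all 24 °C control fish, and 1.15% had all of them above all 32 °C control fish. Among LPS fish the ranges met in both comparisons: the 28 °C fish with no read lay among the 24 °C fish, and 32 °C LPS replicate 5, at 5.20 CPM, was also above 28 °C LPS replicate 2, at 3.73 CPM. Of all tested genes, 0.813% had every 28 °C LPS fish above every 24 °C LPS fish, and 0.303% had every one above every 32 °C LPS fish. These separations are the contrast on which the gene was chosen, and nothing further is read from them.

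Few genes of the table had the detection pattern for which SERPINB1 was chosen. The limits on the number of fish were the gene's own, so the shares below are a description. With detection set at 10 reads, only 1 gene besides SERPINB1 was detected in at least 9 of the 28 °C fish and in none of the 24 °C fish, that is 2 of 31901 genes or 0.00627%. No gene had the reverse pattern, at least 9 fish at 24 °C and none at 28 °C, and none was detected in at least 9 fish at 32 °C and none at 24 °C. The other gene is 1 of 2 with the symbol AHSA1 (ENSDARG00000028664), named after the human activator of the HSP90 ATPase, a co-chaperone that speeds the ATP cycle of the chaperone HSP90.

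AHSA1 was the lower of the pair in reads at 28 °C, and at the limit of 10 reads it was detected in nearly the same fish. That depends on the limit, since only 3 of 5 LPS and 2 of 5 control fish at 28 °C reached 1 CPM of AHSA1. At 24 °C it had 5, 3, 3, 6 and 2 reads in LPS fish and 0, 1, 4, 6 and 0 reads in control fish. At 28 °C it had 12, 56, 3, 29 and 27 reads in LPS fish and 30, 13, 19, 12 and 25 reads in control fish. The only 28 °C fish under 10 reads of AHSA1 was LPS replicate 3, the fish with no read of SERPINB1. At 32 °C it had 2, 0, 8, 0 and 24 reads in LPS fish and 10, 1, 4, 0 and 4 reads in control fish, and the fish with 24 reads was LPS replicate 5, the one with 82 reads of SERPINB1. The match was not complete, since 32 °C LPS replicate 4, with 12 reads of SERPINB1, had no read of AHSA1. Also, 32 °C control replicate 2 had 10 reads of AHSA1 and 9 of SERPINB1. Its AHSA1 level of 0.594 CPM was above the 0.490 CPM of 28 °C control replicate 2. Mean levels of AHSA1 were 0.189 ± 0.106 and 0.114 ± 0.143 CPM in 24 °C LPS and control fish, 1.49 ± 1.01 and 0.921 ± 0.384 CPM in 28 °C LPS and control fish, and 0.405 ± 0.647 and 0.214 ± 0.233 CPM in 32 °C LPS and control fish (SD, n = 5 each). As AHSA1 was picked for its likeness to SERPINB1, these values are a description.

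**Figure D2:**
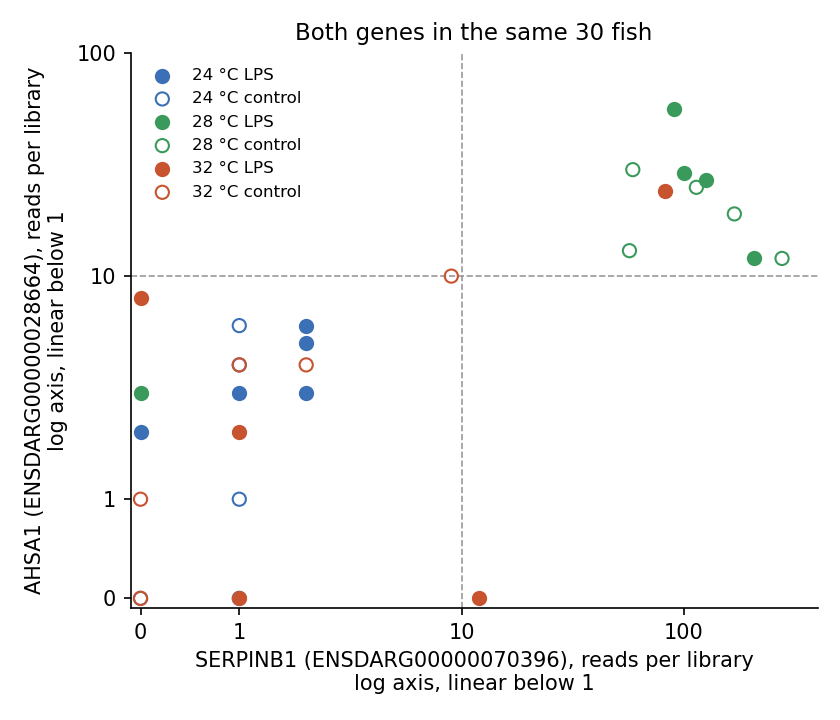
Reads of SERPINB1 (ENSDARG00000070396) on the horizontal axis and of AHSA1 (ENSDARG00000028664) on the vertical axis in each of 30 fish, both log axes that are linear below 1, with broken lines at 10 reads and some points lying on top of others. The upper right corner holds 9 fish incubated at 28 °C and 1 LPS fish incubated at 32 °C, and the remaining 28 °C fish lies at 0 reads of SERPINB1 and 3 reads of AHSA1.

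Among the other 17840 genes tested, AHSA1 also had the log2 CPM values most like those of SERPINB1 over 30 libraries, with Pearson's r of 0.80 and Spearman's rho of 0.76. Because the fish fall into those with and those without the transcript, that split enters r, and how much was not tested. Within 10 fish of 1 temperature, r between the 2 genes was 0.61 at 24 °C, 0.58 at 28 °C and 0.58 at 32 °C, and rho was 0.80, 0.27 and 0.40. At 24 °C both genes had at most 6 reads, so the coefficient there is of counts near 0. At 28 °C LPS replicate 3 was lowest in both genes, with 0 and 3 reads. At 32 °C LPS replicate 5 was highest in both, with 82 and 24 reads. Other 28 °C fish were high in SERPINB1 only, such as control replicate 5 with 277 and 12 reads. How far r rests on single fish was not tested.

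The other gene with the symbol AHSA1 (ENSDARG00000100317) did not share the pattern. It averaged 32.5 and 33.2 CPM in 24 °C LPS and control fish, 29.3 and 35.9 CPM in 28 °C LPS and control fish, and 30.2 and 27.1 CPM in 32 °C LPS and control fish. In none of 12 contrasts of temperature or LPS did it pass an adjusted p of 0.05 (edgeR quasi-likelihood test, Benjamini-Hochberg adjusted over all tested genes), and its r with SERPINB1 was 0.061.

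The next genes in likeness varied less sharply with temperature. They were si:dkey-251i10.2 (r 0.78, rho 0.68), tdh (r 0.74, rho 0.68), LRRC73 (r 0.73, rho 0.72), si:ch211-191d2.2 (r 0.72, rho 0.54) and lrrc34 (r 0.70, rho 0.64), each over 30 libraries. The gene tdh, which codes for the mitochondrial threonine dehydrogenase of zebrafish, was abundant everywhere, at 235 ± 33.96 and 218 ± 32.6 CPM in 24 °C LPS and control fish, 322 ± 70.0 and 356 ± 122 CPM in 28 °C LPS and control fish, and 216 ± 81.4 and 223 ± 16.0 CPM in 32 °C LPS and control fish (SD, n = 5 each). In 32 °C LPS replicate 5, the fish with 82 reads of SERPINB1, tdh stood at 342 CPM, above the mean of 28 °C LPS fish. It did not follow SERPINB1 in every fish. In 28 °C LPS replicate 3, with no read of SERPINB1, tdh stood at 279 CPM, above the 231 CPM of 28 °C LPS replicate 2, with 90 reads. For si:dkey-251i10.2, LRRC73 and lrrc34 the counts were low, with at most 16, 16 and 42 reads in any fish. Which genes head the list depends on what is correlated: with the group means removed, none of these 6 was among the first 6, and AHSA1 was 85th (r 0.57).

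The count table gives no positions, and no sequence or annotation of the build used for it was at hand. In the RefSeq annotation of another zebrafish assembly, GRCz12tu, used here for gene order only, a locus named serpinb1 and a locus serpinb1l1 with that name as a synonym both answer to the symbol, and 2 IDs of the count table carry it, so which locus the gene is cannot be told from names. Beside the serpinb1 locus, 8 genes further on, lies ahsa1a, which may or may not be the AHSA1 ID with the same pattern of detection. Neighbours were matched to IDs by a unique symbol, and genes without such a match, ahsa1a among them, were left out. The 20 nearest matched and tested genes, 10 on each side, lay 3 to 27 genes from that locus. None of them was called between 24 and 28 °C or between 32 and 28 °C, in control or LPS fish. Of all tested genes, 2.47% and 0.633% were called in these contrasts of control fish and 0% in those of LPS fish. Between 24 °C and 28 °C control fish their log2 fold changes ran from -3.01 to 0.92 with a smallest adjusted p of 0.0726 (edgeR). Their r with SERPINB1 ran from -0.41 to 0.65, with a median of 0.041 against -0.023 over all tested genes. The highest, si:dkey-85n7.8, lies 18 genes away and was detected at 10 reads in 0 fish at 24 °C, 5 at 28 °C and 2 at 32 °C. Around serpinb1l1, r ran from -0.45 to 0.25 over 20 neighbours taken in the same way. Of these, 1 was called, si:ch73-52f24.4, higher in 24 °C than in 28 °C control fish (log2 fold change 4.88, adjusted p = 0.0368, edgeR). In that contrast 1.54% of tested genes were higher. The gene reached 10 reads in only 5 fish at 24 °C, 4 at 28 °C and 6 at 32 °C. Whether its call rests on single fish, such as 24 °C control replicate 4, was not tested.

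The genes most like SERPINB1 were also counted by chromosome for both loci, as it is not known which of them the gene is. Of the 6 named above, 5 have a place in GRCz12tu. On the chromosome of the serpinb1 locus are 2 of these 5, tdh and si:ch211-191d2.2, or 40%. Of the 20 most alike it was 3 of 13 placed genes (23.08%), and of the 50 most alike 6 of 30 (20%), against 520 of 12564 (4.139%) of all tested and placed genes. For the chromosome of serpinb1l1 the shares were 0 of 5, 0 of 13 and 2 of 30 (6.667%), against 614 of 12564 (4.887%). The 20 include the 6 and the 50 include the 20, so these shares are not separate from each other. They are counts of genes ranked on the same 30 libraries, with no test. That ranking includes the temperature pattern on which the gene was chosen.

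LPS made no difference to SERPINB1 that passed the test at any temperature, in edgeR's quasi-likelihood fit over all 30 libraries and 17841 genes. At 28 °C, where the gene was best measured, the log2 fold change of LPS over control fish was 5.48e-05 ± 1.01 (SE), with an adjusted p of 1 and a 95% interval from -2.08 to 2.08, so a change of up to 2.08 on the log2 scale in either direction is within the error. The equality of the 2 means includes the LPS fish with no read; without that fish the log2 fold change was 0.32 (adjusted p = 0.960). For comparison, LPS changed 0.0112% of all tested genes at 28 °C, 0.0168% at 24 °C and 0.00561% at 32 °C by the same test. The count at 24 °C, 3 genes, ran from 0 to 292 with libraries left out, the highest without 24 °C control replicate 2; the 2 genes at 28 °C became 0 to 5 and the 1 gene at 32 °C 1 to 7.

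At 32 °C the log2 fold change of LPS over control fish was 3.13 ± 1.25 (SE), with an unadjusted p of 0.0184, an adjusted p of 0.559 (edgeR) and a 95% interval from 0.55 to 5.71. The ranges overlapped, since 3 of 5 LPS fish and all 5 control fish had fewer than 10 reads. The value rested on few fish: without LPS replicate 5 it was 0.75 (adjusted p = 0.977), and without control replicate 2 it was 4.74 (adjusted p = 0.321). At 24 °C both groups were under the limit of 3 reads, and no fold change is given (adjusted p = 0.867, edgeR).

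Over the 3 temperatures together the mean log2 fold change of LPS over control was 1.27 ± 0.78 (SE, adjusted p = 0.813, edgeR), with 0.0112% of tested genes passing. The response at 32 °C minus that at 28 °C was 3.13 ± 1.60 on the log2 scale (SE), with a 95% interval from -0.18 to 6.44 and an adjusted p of 0.526, where 0.112% of tested genes passed. The response at 24 °C minus that at 28 °C did not pass either (adjusted p = 0.875, edgeR), where 0.751% of tested genes did (134 genes, and 3 to 446 with libraries left out, 3 without 28 °C LPS replicate 1), and it rests on a 24 °C level that was not measurable. The same 28 °C fish enter both differences.

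**Figure D3:**
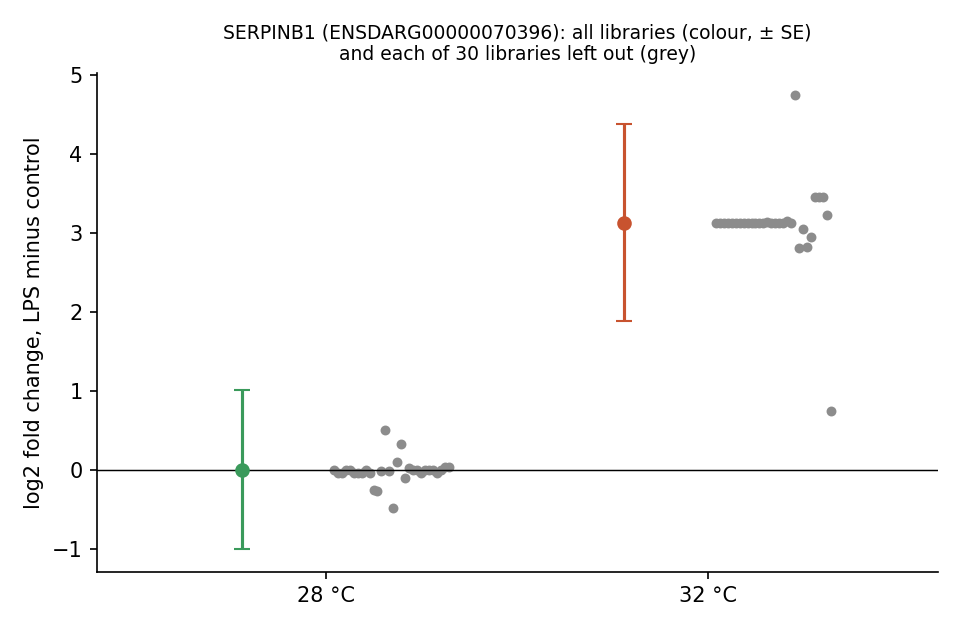
Log2 fold change of SERPINB1 (ENSDARG00000070396), LPS minus control, at 28 °C and 32 °C, from the fit of all 30 libraries (coloured point, bar = SE) and from fits that leave out each library in turn (grey points). At 28 °C the values stay near 0, between -0.48 and 0.50, and at 32 °C they run from 0.75 without LPS replicate 5 to 4.74 without control replicate 2; 24 °C is not shown because both groups were under 3 reads.

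By symbols that start with serpinb, 5 other clade B serpin genes were found in the table, and all of them were read at every temperature. Members of the family under other names, or with no symbol, are not counted. They are the second gene with the symbol SERPINB1 (ENSDARG00000055416), serpinb1l3 (ENSDARG00000014556), serpinb1l4 (ENSDARG00000096888), serpinb14 (ENSDARG00000091801) and SERPINB8 (ENSDARG00000095830). Members of a serpin family are alike in sequence, and no source at hand says how reads shared by near-identical genes were assigned, so counts could be split between them. The second SERPINB1 gene averaged 9.61 ± 2.88 and 12.4 ± 6.02 CPM in 24 °C LPS and control fish, 9.95 ± 3.81 and 8.16 ± 4.90 CPM in 28 °C LPS and control fish, and 10.5 ± 2.33 and 16.5 ± 5.37 CPM in 32 °C LPS and control fish (SD, n = 5 each). Its lowest fish had 4.90 CPM, and it was not low in the groups in which ENSDARG00000070396 was missing. The fish with no read of ENSDARG00000070396 at 28 °C had 10.3 CPM of it.

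SERPINB8, whose human counterpart inhibits furin, lay between 34.4 and 99.3 CPM in every fish, and serpinb1l3 between 26.2 and 104 CPM. For serpinb14 the range over the 30 fish was 2.21 to 27.4 CPM. The lowest of these 5 genes, serpinb1l4, averaged 1.37 to 2.80 CPM by group, and fell to 0.0377 CPM, 1 read, in 1 of the 28 °C control fish. None of the 5 genes passed an adjusted p of 0.05 in any of 12 contrasts, LPS or temperature, by edgeR, DESeq2 or limma voom. By edgeR, 2 of these 60 tests had an unadjusted p under 0.05. SERPINB8 was 0.38 ± 0.18 higher on the log2 scale in 24 °C LPS than in 24 °C control fish (SE, adjusted p = 0.290), and the second SERPINB1 gene was 1.02 ± 0.35 higher in 32 °C than in 28 °C control fish (SE, adjusted p = 0.146). The percentage of all tested genes that passed was 2.47% between 24 °C and 28 °C control fish (1.54% higher and 0.925% lower at 24 °C), 0.633% between 32 °C and 28 °C control fish and 0.0224% between 32 °C and 24 °C control fish, and 0% in the same contrasts of LPS fish. Median log2 fold changes of the 5 genes were -0.12 between 24 °C and 28 °C control fish, against 0.11 over all tested genes, and 0.08 between 24 °C and 28 °C LPS fish, against -0.01. Over 30 libraries the r of the 5 genes with SERPINB1 ran from -0.36, for its namesake, to 0.022, for serpinb14.

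**Figure D4:**
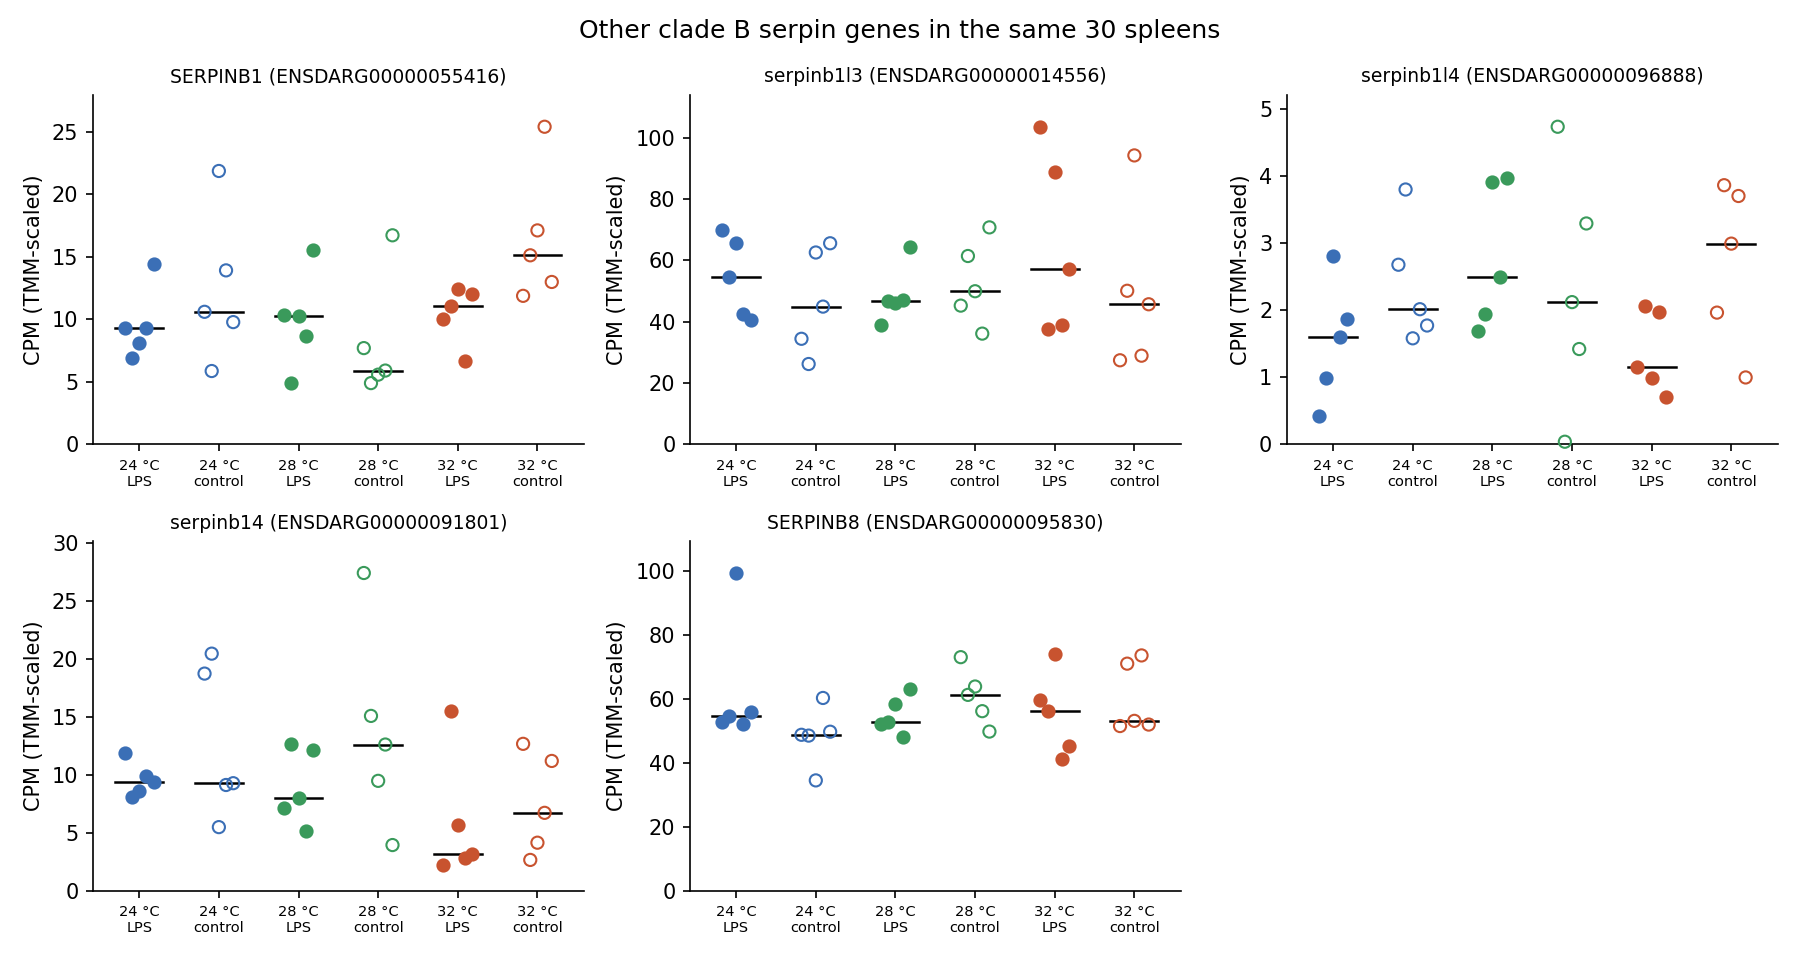
CPM of the 5 other clade B serpin genes found by symbol in each of 30 fish, by incubation temperature and treatment. The axes are linear, start at 0 and differ between panels, with filled points for LPS, open points for control and bars for group medians. All 5 genes are present at 24 °C as at 28 °C, and the second SERPINB1 gene (ENSDARG00000055416) lies at or above 4.90 CPM in all 30 fish.

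Of 18 serpins of other clades found by symbol 16 were tested, and 0 passed in any of the 12 contrasts. Per contrast, 0% to 2.47% of all tested genes passed, so 0 calls in this list and the next are near that share. Of a list of 31 granule proteases, granzymes and caspase pathway genes, 20 were found by symbol and tested, and 0 passed in any contrast. Some genes of the list code for no protease, so its sum is not a level of the proteases that mammalian SERPINB1 inhibits. The 20 summed to 1320 to 1720 CPM in 24 °C LPS fish and 1105 to 1409 CPM in 24 °C control fish, against 568.1 to 1696 CPM in 28 °C LPS fish and 1162 to 2361 CPM in 28 °C control fish, so they were read at both temperatures.

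Neutrophil genes, of which 20 of 24 were found and tested, were lower in some of the comparisons in which SERPINB1 was lower. In 24 °C against 28 °C control fish 6 of 20 passed the test and all 6 were lower, with a median log2 fold change over the list of -0.93 against 0.11 over all tested genes, beside 0.925% of tested genes that were lower. Among them, NCF4, a subunit of the phagocyte NADPH oxidase, fell by 1.22 ± 0.22 (SE, adjusted p = 0.0224, edgeR) and the chemokine cxcl8a fell by 2.40 ± 0.51 (SE, adjusted p = 0.0269, edgeR) on the log2 scale. In 32 °C against 28 °C control fish 3 of 20 passed, all lower, among them the chemokine receptor cxcr1, which fell by 3.50 ± 0.62 (SE, adjusted p = 0.0146, edgeR), where 0.213% of tested genes were lower. These calls were sensitive to single libraries: the 6 became 0 without 24 °C control replicate 4 or without 28 °C control replicate 7, and 1 to 3 without 24 °C control replicate 2 or 28 °C control replicates 2, 3 or 5. The 3 became 1 without 28 °C control replicates 2, 3 or 7 or without 32 °C control replicates 2 or 3. The direction held: with each library left out, the list median stayed between -1.06 and -0.62 for 24 °C against 28 °C control fish. For 32 °C against 28 °C control fish it stayed between -1.10 and -0.74. Calls over all genes moved too, and those between 24 °C and 28 °C control fish fell to 5 without 28 °C control replicate 7. For the neutrophil gene lyz, medians were 2.05 CPM in 24 °C, 1.93 CPM in 28 °C and 1.07 CPM in 32 °C control fish. The ranges of lyz, 0.728 to 4.1, 0.899 to 17.1 and 0.654 to 3.23 CPM in that order, overlapped. In control fish the lyz medians at 24 °C and 28 °C were thus close, though the highest 28 °C fish exceeded every 24 °C fish. The gene lyz was chosen after its values were seen. Of the 20 genes of the list, 19 had a log2 fold change below 0 in 24 °C against 28 °C control fish. In LPS fish the lyz median was 1.43 CPM at 24 °C and 2.12 CPM at 28 °C, with overlapping ranges, and was highest at 32 °C.

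In LPS fish no neutrophil gene passed between temperatures, where 0% of all tested genes passed, and the summed levels overlapped. The 20 genes summed to 2327 to 3437 CPM in 24 °C LPS fish, 1047 to 3262 CPM in 28 °C LPS fish and 1128 to 2984 CPM in 32 °C LPS fish, and to 1107 to 2450 CPM, 2793 to 4099 CPM and 1492 to 2767 CPM in control fish of 24, 28 and 32 °C. Among control fish, every 28 °C sum was above every 24 °C and every 32 °C sum. Of single tested genes, 2.07% and 1.15% were so separated. The part of neutrophil content in the temperature pattern of SERPINB1 was not tested.

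Of the lists for other cell types, macrophage and B cell genes each had 3 of 7 tested members higher in 32 °C than in 28 °C control fish, where 0.42% of tested genes were higher. The macrophage calls were c1qa, c1qb and c1qc, and the B cell calls cd79a, cd74a and cd74b. Macrophage genes summed to 2257 to 5321 CPM in 32 °C and 2291 to 4050 CPM in 28 °C control fish, which overlapped. For B cell genes the sums were 990 to 3881 CPM and 375 to 910 CPM. The same 3 macrophage and 3 B cell genes were lower in the LPS response at 32 °C minus that at 28 °C, where 0.0897% of tested genes were lower. In the LPS response at 24 °C minus that at 28 °C, 3 neutrophil genes and 1 liver gene were higher and 1 macrophage gene was lower, where 0.583% of tested genes were higher and 0.168% lower. The 3 neutrophil calls became 0 without 28 °C LPS replicates 1 or 4, and 1 without 24 °C LPS replicate 1, 24 °C control replicate 4 or 28 °C control replicate 2. The ovary, keratinocyte and liver lists had 2 of 3, 1 of 12 and 1 of 13 called between 24 °C and 28 °C control fish. The ovary and keratinocyte genes were higher and the liver gene lower at 24 °C, where 1.54% of tested genes were higher and 0.925% lower. The keratinocyte call was epcam, with a log2 fold change of 8.20, while the median of that list was -0.05. The liver call was CP, with a log2 fold change of -1.98, against the median of its list. The median of the liver list was 3.49, and 11 of its 13 tested genes were above 0. The summed liver level went the other way by median, at 263 CPM in 24 °C and 460 CPM in 28 °C control fish. The ranges, 130 to 1019 CPM and 336 to 925 CPM, overlapped, and the highest 24 °C control fish was replicate 5. How far the list median rests on single fish was not tested. In the LPS response at 24 °C minus that at 28 °C, CP was also the liver call, at 2.97. The median of the liver list there was -4.26, with 1 of 13 genes above 0. The ovary sum was high in 24 °C control replicate 4 alone. Keratinocyte and epithelium genes, a source in which clade B serpins are known from mammals, summed to 2819 to 3265 CPM in 24 °C LPS fish and 2124 to 4233 CPM in 24 °C control fish, against 2183 to 3553 CPM in 28 °C LPS fish and 2570 to 5415 CPM in 28 °C control fish, and the ranges overlapped. For T and NK cell, thrombocyte, red cell, acinar pancreas, intestine and muscle genes, 0 were called in the 12 contrasts. Per contrast, 0% to 2.47% of all tested genes were called. Acinar pancreas genes ranged from 202 to 46830 CPM between libraries of all groups.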

How the data were processed

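Spleen RNA of 30 fish was made into poly(A)-selected, strand-marking libraries, per the labels' protocols. The authors deposited raw counts per Ensembl gene and library; bcl2fastq, cutadapt 1.12, FastQC 0.11.5, STAR, DESeq2 1.11.1 and the build GRCz11 are named in the submitters' processing notes. The counting program, its annotation and its use of strand were named in no source at hand, and reads of overlapping, antisense or near-identical genes may therefore be shared. No value column was left out beyond those of the 30 libraries (0 unlisted).

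Counts were analysed with edgeR 4.0.16 in R 4.3.3: TMM scaling, filterByExpr by group (17841 of 31901 genes kept), and a robust quasi-likelihood fit with 1 mean per group of 5 fish and 24 residual degrees of freedom. P-values were Benjamini-Hochberg adjusted over all tested genes with a threshold of 0.05. DESeq2 1.42.0 and voom of limma 3.58.1 were alternatives, beside other scaling, filters, fits of fewer groups, a replicate block and leaving out libraries. The test was also run on simulated data, drawn around each gene's mean over all libraries. That setting does not cover a gene nearly absent from some groups. CPM are TMM-scaled, and gene list sums are CPM of the library total; log2 CPM used a prior count of 2, detection 10 reads. Symbols were found for 29178 of 31901 IDs.

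The gene and the lists were chosen with earlier results of these data known. Named were all clade B serpins found by symbol with at least 1 CPM in 5 libraries, and the 6 genes with the highest Pearson's r to the gene. Also named were genes with its detection pattern, neighbours called between 24 and 28 °C, and up to 4 called members of each list. The genes si:dkey-85n7.8, lyz and the second AHSA1 gene, and tdh's levels in single fish, were chosen after their values were seen.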

Additional observations from a re-analysis of the deposited data

Results flagged for a closer look

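Within groups of 5 fish, 42 sets of values (7 genes in 6 groups) were searched for a fish far from the others, by the gap to the nearest fish as a share of the group's range. A gap of more than 0.71 of the range was found in 7 sets. That cutoff corresponds to about 1 in 20 sets only for normally distributed values. CPM of low and skewed counts are not so distributed, so the 7 sets are not compared with chance. For SERPINB1 (ENSDARG00000070396) these were 32 °C LPS replicate 5 at 5.20 CPM against 0.948 CPM in the next fish, 32 °C control replicate 2 at 0.535 CPM against 0.0949 CPM in the next, and 24 °C control replicate 2 at 0 CPM against 0.0431 CPM in the next, a difference of 1 read. The 28 °C LPS fish with no read did not stand apart by this measure, because the other 4 fish were themselves widely spread. AHSA1 (ENSDARG00000028664) stood at 1.52 CPM in 32 °C LPS replicate 5, the same fish, against 0.415 CPM in the next.

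Of the other clade B serpins, serpinb14 was at 15.5 CPM in 32 °C LPS replicate 2 against 5.65 CPM in the next fish, SERPINB8 at 99.3 CPM in 24 °C LPS replicate 3 against 55.9 CPM in the next, and the second SERPINB1 gene (ENSDARG00000055416) at 16.7 CPM in 28 °C control replicate 7 against 7.70 CPM in the next. No test was run of why these fish differ.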

How the results depend on the processing

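No alternative brought an LPS test of SERPINB1 past the threshold. At 28 °C the log2 fold change of 5.48e-05 is so near 0 that its sign is arbitrary: it was -0.0123 with DESeq2's size factors, -0.00672 with no filter, -0.0383 with the stricter filter (1 CPM in 5 libraries), -0.0132 with DESeq2's Wald test, -0.0188 in a fit of the 2 groups alone, -6.85e-04 without the 3 libraries that stood apart (chosen after seeing the data), -1.56 with limma voom and quality weights (adjusted p = 0.503), and -0.48 to 0.50 with each library left out. The mean over temperatures reversed with voom (-0.14), and leaving out libraries gave 0.49 to 1.81; the difference between 32 and 28 °C ran from 0.72 to 4.75 (4.745) with libraries left out. At 32 °C it was 0.73 with voom and 4.40 without the 3 libraries. The cause of these moves was not tested, beyond the few fish that hold the reads. The 24 and 32 °C groups alone gave no value, because the filter removed the gene, and the mean had no smaller fit.

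Whether replicate numbers pair the fish could not be settled from so few pairs. Of 9 same-numbered LPS and control pairs, 3 had correlated deviations over 0.1 (-0.14 to 0.44), against 16 of 66 other pairs (-0.37 to 0.40). With the replicate block the LPS log2 fold change was 0.40 at 28 °C and 0.02 at 32 °C, their difference reversed to -0.38, and 1 clade B serpin was called against 0 without it, ENSDARG00000055416, higher in 32 than in 28 °C control fish (1.41, adjusted p = 0.0464).

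Detection depended on its limit: with 1 or more reads it was 8 fish at 24 °C and 7 at 32 °C, and with 1 CPM 1 fish at 32 °C; 28 °C stayed at 9. Of the 6 most alike genes, 0 were shared after removing group means, and 2 in the 20 libraries of 28 and 32 °C. Calls over all genes between 24 and 28 °C control fish, 440, ran from 5 to 753 with libraries left out, and were 890 with DESeq2, 12 with voom, 41 in the 2 groups alone, 20 with the block and 7 without the 3 libraries; between 32 and 28 °C control fish, 113 became 625, 0 in the 2 groups alone, 419 with the block, and 4 to 506 with libraries left out. LPS calls of 3, 2 and 1 at 24, 28 and 32 °C became 274, 69 and 17 with DESeq2. Neutrophil calls between 24 and 28 °C control fish, 6, and between 32 and 28 °C, 3, were both 0 without the 3 libraries; the 6 became 1 with voom, in the 2 groups alone and with the block, and the 3 became 1 with voom, 0 in the 2 groups alone, and 6 with the block and with DESeq2. The 3 neutrophil calls in the LPS response at 24 minus 28 °C became 1 with no filter and 6 with DESeq2.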
